A study of Mus musculus with 7 samples.

Results

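The 9 genes described here encode the Janus kinases JAK1, JAK2, JAK3 and TYK2 and the transcription factors STAT3, STAT4, STAT5A, STAT5B and STAT6. They were chosen by gene symbol, with earlier results of these data known, and they are 9 of the 54532 genes in the table of counts. RNA from spleen was sequenced in 7 libraries that the labels call sorted follicular helper T (Tfh) cells of mice sensitised intraperitoneally with ovalbumin. There were 4 libraries with the genotype label Mst1 knockout, whose titles write the mice as Mst1∆CD4, and 3 with the label WT. All 7 came from ovalbumin-sensitised animals, and no unsensitised group was analysed here. What drives the deletion, and the strain, age and pooling of the mice, were not stated in the labels. Coordinates are those of GRCm38 (mm10). The groups are called knockout-labelled and wild-type-labelled below.

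Cytokine receptors of this class have no kinase of their own. A JAK is bound to the tail of each receptor chain, ligand brings the chains together, and the activated JAKs phosphorylate the receptor and the STATs that dock on it, which then pair, enter the nucleus and bind DNA. JAK3 pairs with the common gamma chain, the shared subunit of the receptors for interleukins 2, 4, 7, 9, 15 and 21, and JAK1 with their other chains. JAK2 serves the erythropoietin and common beta chain receptors and, with TYK2, the interleukin 12 receptor. In helper T cells STAT3 acts downstream of interleukins 6 and 21 and promotes the Tfh fate, STAT4 acts downstream of interleukin 12, STAT5 acts downstream of interleukin 2 and opposes the Tfh fate, and STAT6 acts downstream of interleukin 4.

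Totals ran from 16789158 to 18375275 counts per library. Levels are in CPM, counts relative to the library's effective size after scaling with the trimmed mean of M-values (TMM), and replicates are given in the order of their numbers. The gene of the MST1 kinase is Stk4, which stood at 287 to 302 CPM in the knockout-labelled libraries, against 316 to 336 CPM in the wild-type-labelled libraries (log2 fold change -0.16, edgeR adjusted p = 0.225). The count is per gene, so reads outside a deleted part would be included. A different gene carries the symbol Mst1, and its CPM was 0.828 to 1.85 in the knockout-labelled libraries, against 7.81 to 11.8 in the wild-type-labelled libraries. The labels call the cells sorted Tfh cells, and markers of other cells were abundant. The summed level of 9 T cell markers was 117 to 209 CPM in the knockout-labelled libraries, against 410.3 to 688 CPM in the wild-type-labelled libraries, and none of the 9 was at 0. For 7 Tfh markers, led by Cxcr5 and Bcl6, the sum was 144 to 253 CPM in the knockout-labelled libraries, against 356 to 452 CPM in the wild-type-labelled libraries, and 6 of the 7 fell. The sum of 7 B cell markers was 1283 to 3113 CPM in the knockout-labelled libraries, against 3868 to 5245 CPM in the wild-type-labelled libraries. Of these 7, 1, Cd22, fell and 6 did not pass in edgeR, while 6 passed with DESeq2. The sum of 6 neutrophil markers was 7881 to 11939 CPM in the knockout-labelled libraries, against 13441 to 16689 CPM in the wild-type-labelled libraries. Of these 6, 4 fell, 1, Mmp8, rose and 1 did not pass in edgeR. The sum of 7 erythroid markers was 599 to 1370 CPM in the knockout-labelled libraries, against 129 to 170.1 CPM in the wild-type-labelled libraries. In bulk RNA, fewer cells of a type and less RNA per cell cannot be told apart.

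Of the 9 genes, all of which passed the filter on low counts, Stat4 and Jak1 fell, Tyk2 and Stat5a rose, and 5 did not pass the test at an adjusted p of 0.05 (edgeR quasi-likelihood test, Benjamini-Hochberg adjustment over 15795 genes). Over all genes tested, 15.5% passed in either direction, 8.71% higher and 6.83% lower. The groups did not overlap for the same 4 of the 9 genes, and for 30.0% of all genes tested. The median log2 fold change of the 9 genes was -0.0045, beside -0.0019 for all genes tested, and 4 of the 9 were above 0 and 5 below. The 9 log2 fold changes ran from -0.95 for Stat4 to 0.42 for Tyk2, with standard errors (SE) of 0.09 to 0.17. The labels call the libraries biological replicates, and p-values set the difference between the groups against the spread between these libraries. Since pooling was not stated, that spread may not be the spread between single mice.

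**Figure D1:**
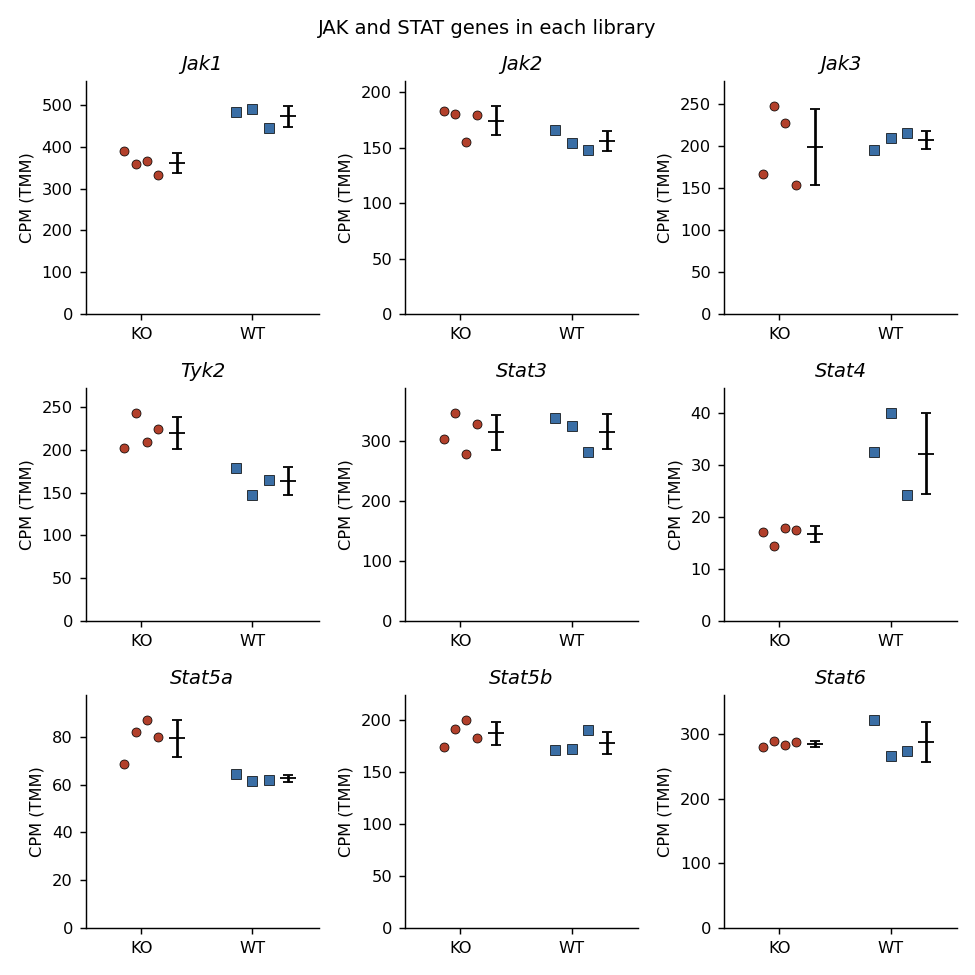
Each panel plots the CPM (TMM-scaled) of 1 gene, with a point for each of 4 knockout-labelled (KO, circles, left) and 3 wild-type-labelled (WT, squares, right) libraries and bars for the mean ± SD, on axes that start at 0. The groups are apart for Jak1, Tyk2, Stat4 and Stat5a, and they overlap for Jak2, Jak3, Stat3, Stat5b and Stat6.

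Among the kinases, Jak1, which serves the common gamma chain, gp130 and interferon receptors (ENSMUSG00000028530, chromosome 4, 101152367 to 101265282, minus strand) had 390.2, 358, 365 and 332 CPM in the knockout-labelled libraries, against 483, 489 and 443 CPM in the wild-type-labelled libraries. Every knockout-labelled value lay below every wild-type-labelled value. The gene averaged 361 ± 24.0 CPM (SD, n = 4) in the knockout-labelled libraries and 472 ± 24.9 CPM (n = 3) in the wild-type-labelled libraries. It fell by 0.38 on the log2 scale (SE 0.10, 95% interval -0.60 to -0.17, edgeR adjusted p = 0.0285). The fall was close to the threshold. The adjusted p was 0.0808 without knockout-labelled replicate 2, 0.0547 without knockout-labelled replicate 4, and 0.0951, 0.098 and 0.0585 without wild-type-labelled replicates 1, 2 and 3, with a log2 fold change between -0.43 and -0.34 throughout.

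Tyk2, the kinase that partners JAK1 or JAK2 at the receptors for type I interferon and interleukin 12 (ENSMUSG00000032175, chromosome 9, 21104068 to 21131243, minus strand), moved the other way. It had 202, 243, 209 and 224 CPM in the knockout-labelled libraries, against 179, 147 and 165 CPM in the wild-type-labelled libraries. All 4 knockout-labelled libraries lay above all 3 others. The log2 fold change was 0.42 (SE 0.11, 95% interval 0.18 to 0.66, edgeR adjusted p = 0.0283). The adjusted p was 0.0792 without knockout-labelled replicate 2, 0.104 without wild-type-labelled replicate 2 and 0.0855 without wild-type-labelled replicate 3.

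The ratio of Jak1 to Tyk2 within a library does not depend on library scaling. In counts per kb of gene length it was 1.84, 1.40, 1.66 and 1.41 in the knockout-labelled libraries, against 2.56, 3.16 and 2.55 in the wild-type-labelled libraries. Gene length here counts all annotated exon bases, so levels set between genes depend on the annotation. The ratio was 0.57 times as high in the knockout-labelled libraries (difference of the mean log2 ratio -0.81). Since the groups did not overlap for Jak1 or for Tyk2, in opposite directions, the ratio had to separate them, and it is given as a description with no test. Of the 4 kinases' summed counts per kb, Jak1 made up 32.6% ± 2.50 in the knockout-labelled libraries (SD, n = 4) and 41.1% ± 1.54 in the wild-type-labelled libraries (n = 3). Tyk2 made up 20.8% ± 1.53 in the knockout-labelled libraries and 15.01% ± 1.37 in the wild-type-labelled libraries. The sum over the 4 kinases was 154 ± 10.1 CPM per kb in the knockout-labelled libraries and 159 ± 3.65 CPM per kb in the wild-type-labelled libraries, and the groups overlapped.

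Jak2 and Jak3 did not pass. Jak2, the kinase of the erythropoietin and common beta chain receptors (ENSMUSG00000024789, chromosome 19, 29251828 to 29313080, plus strand), had 183, 180.5, 155 and 179 CPM in the knockout-labelled libraries, against 166, 154 and 148 CPM in the wild-type-labelled libraries. Knockout-labelled replicate 3 lay among the wild-type-labelled values and the other 3 above them. The log2 fold change of Jak2 was 0.16 (95% interval -0.05 to 0.37, edgeR adjusted p = 0.273). Jak3, the partner of the common gamma chain (ENSMUSG00000031805, chromosome 8, 71676296 to 71690575, plus strand), had 167, 248, 227 and 154 CPM in the knockout-labelled libraries, against 196, 209 and 216 CPM in the wild-type-labelled libraries. Replicates 2 and 3 of the knockout-labelled group were above every wild-type-labelled value and replicates 1 and 4 below every one. Its coefficient of variation was 22.9% in the knockout-labelled group and 4.996% in the wild-type-labelled group, and its log2 fold change was -0.06 (95% interval -0.43 to 0.32, edgeR adjusted p = 0.84). Jak3 shares 7.55% of its exon bases with Insl3, which had 845 counts over the 7 libraries. The ratio of Jak3 to Il2rg, the gene of the common gamma chain, was 0.481 to 0.921 in the knockout-labelled libraries and 0.442 to 0.727 in the wild-type-labelled libraries (2-sided exact permutation p = 0.429, adjusted p = 0.429 over 4 ratios).

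Among the STATs, Stat4 (ENSMUSG00000062939, chromosome 1, 51987148 to 52107189, plus strand) had the largest change of the 9 genes. It had 17.03, 14.4, 17.9 and 17.4 CPM in the knockout-labelled libraries, against 32.4, 39.9 and 24.2 CPM in the wild-type-labelled libraries. The knockout-labelled values lay close together and all below the wild-type-labelled ones, which spread more widely. Stat4 fell by 0.95 on the log2 scale (SE 0.17, 95% interval -1.33 to -0.56, edgeR adjusted p = 0.00829), to 0.519 times the wild-type-labelled level. The call held without each library in turn, with an adjusted p of at most 0.0356 and a log2 fold change between -1.12 and -0.77. The gene overlaps 1 noncoding gene, Gm28177, that shares 26.7% of its exon bases in GENCODE M21 and had 31 counts over the 7 libraries, beside 259 to 687 counts of Stat4 per library.

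STAT4 is known from T cells and natural killer cells, and markers of both were measured beside it. All 9 T cell markers were lower and passed the test, with a median log2 fold change of -1.69, and Thy1 fell by 1.61 and Cd4 fell by 1.69 on the log2 scale. Of 6 markers of CD8 T cells and natural killer cells, Cd8b1 and Klrb1c fell and the other 4 did not pass, and their summed level was 101 to 164 CPM in the knockout-labelled libraries, against 138 to 254 CPM in the wild-type-labelled libraries. The median log2 fold change of these 6 was -0.50, a smaller fall than that of Stat4. Stat4 fell less than the median of the T cell markers. Its ratio to their sum, per kb, was 0.0515, 0.0612, 0.0654 and 0.0978 in the knockout-labelled libraries, against 0.0284, 0.0454 and 0.0359 in the wild-type-labelled libraries (1.87 times as high, exact permutation p = 0.0286, the smallest this design allows, adjusted p = 0.0381). That adjusted p is lowered by counting the ratio of Jak1 to Tyk2, which had to separate the groups. With the geometric mean of the T cell markers in place of their sum, the exact permutation p was 0.0571. The part of these markers in the fall of Stat4 was not tested.

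Stat5a and Stat5b are neighbours on chromosome 11, 8627 bases apart on opposite strands. The 3′ ends of Stat5a and Stat3 overlap by 72 exon bases, also on opposite strands, and the strand setting of the counts is not stated. STAT5A and STAT5B act downstream of interleukin 2 and the other common gamma chain cytokines. The coding sequences were compared because the counts of near-identical genes depend on how shared reads are assigned, a step not described in the labels. Those of Stat5a (2394 bases) and Stat5b (2361 bases) were identical at 90.7% of aligned bases, and no other pair among the 9 genes shared a run of 50 bases. The longest identical run was 324 bases, coding bases 571 to 894 of both genes, in the part that encodes the coiled-coil domain. Its first 110 bases are shown in capitals for both genes, from GENCODE M21 (GRCm38), with the 10 bases before it in lower case.
Stat5a: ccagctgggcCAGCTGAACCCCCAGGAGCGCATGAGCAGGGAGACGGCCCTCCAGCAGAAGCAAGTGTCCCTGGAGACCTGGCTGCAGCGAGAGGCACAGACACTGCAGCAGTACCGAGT
Stat5b: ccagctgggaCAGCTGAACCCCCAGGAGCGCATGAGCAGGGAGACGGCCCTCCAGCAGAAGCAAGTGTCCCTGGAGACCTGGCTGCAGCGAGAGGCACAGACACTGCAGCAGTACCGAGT
A read that falls within the capitals, or elsewhere in the run, cannot be assigned to one of the 2 genes. Of all windows of 50 bases, 17.1% of those in the longest coding transcript of Stat5a were also in Stat5b, and 12.1% of those of Stat5b in Stat5a. The ends of these 2 coding sequences, each from the longest coding transcript of its gene, differ. The ends of any other transcripts were not compared. The last 60 bases, stop codon included and set side by side without gaps, differ at 44 positions, in capitals. Since they were not aligned, this count does not measure how far the genes have diverged.
Stat5a: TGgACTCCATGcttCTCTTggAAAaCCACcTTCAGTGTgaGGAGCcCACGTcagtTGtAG
Stat5b: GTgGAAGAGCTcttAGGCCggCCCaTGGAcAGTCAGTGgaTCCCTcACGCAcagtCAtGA

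Stat5a (ENSMUSG00000004043, 100859351 to 100885169, plus strand) had 68.4, 82.2, 86.9 and 79.8 CPM in the knockout-labelled libraries, against 64.4, 61.5 and 61.7 CPM in the wild-type-labelled libraries. All knockout-labelled values were higher, with replicate 1 the closest to the wild-type-labelled range. Stat5a rose with a log2 fold change of 0.34 (SE 0.10, 95% interval 0.12 to 0.57, edgeR adjusted p = 0.0469), which was the weakest of the 4 calls. The adjusted p was 0.0511 with RLE size factors, 0.0666 with upper-quartile scaling, 0.0628 with library totals alone and 0.0531 with all genes that had a count. It was 0.119, 0.0788 and 0.066 without knockout-labelled replicates 2, 3 and 4, and 0.0997, 0.136 and 0.134 without wild-type-labelled replicates 1, 2 and 3. In the authors' deposited table, whose codes name no genotype, its log2 fold change was 0.3434 and its adjusted p was 0.0311. DESeq2 on the same counts, knockout-labelled over wild-type-labelled, gave 0.3434 and an adjusted p of 0.0308, so the authors' value is not separate evidence.

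Stat5b (ENSMUSG00000020919, 100780731 to 100850724, minus strand) had 175, 191, 201 and 183 CPM in the knockout-labelled libraries, against 172, 172 and 190.4 CPM in the wild-type-labelled libraries. The groups overlapped, and the log2 fold change of 0.07 (95% interval -0.13 to 0.27) did not pass (edgeR adjusted p = 0.613). The ratio of Stat5a to Stat5b per kb was 0.304, 0.334, 0.336 and 0.338 in the knockout-labelled libraries, against 0.291, 0.277 and 0.252 in the wild-type-labelled libraries. It was 1.20 times as high in the knockout-labelled libraries (exact permutation p = 0.0286, adjusted p = 0.0381). The adjusted p is lowered by counting the ratio of Jak1 to Tyk2, which had to separate the groups. Reads that both Stat5a and Stat5b can claim enter the ratio of these 2 genes. The level of the ratio depends on the gene lengths used, while its comparison between the groups does not.

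Stat3 and Stat6 had the fold changes closest to 0. Stat3, the factor downstream of interleukins 6 and 21 (ENSMUSG00000004040, chromosome 11, 100885098 to 100939540, minus strand), had 302, 346, 279 and 328 CPM in the knockout-labelled libraries, against 338, 324 and 282 CPM in the wild-type-labelled libraries. The groups overlapped widely. Its log2 fold change was -0.0045 with a 95% interval of -0.26 to 0.25 (edgeR adjusted p = 0.983), so a change beyond 1.19-fold up or below 0.838 times lies outside the interval. Stat6, the factor downstream of interleukin 4 (ENSMUSG00000002147, chromosome 10, 127642986 to 127660957, plus strand), had 280.3, 289.8, 283 and 288 CPM in the knockout-labelled libraries, against 322, 266 and 274 CPM in the wild-type-labelled libraries. The knockout-labelled values fell within the wild-type-labelled range, and the log2 fold change was -0.01 (95% interval -0.23 to 0.20, edgeR adjusted p = 0.945).

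**Figure D2:**
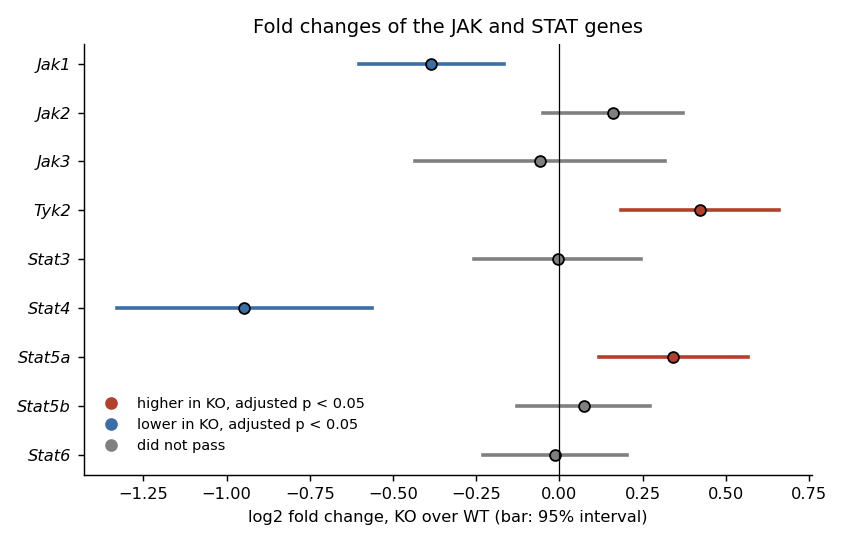
Points give the log2 fold change (KO over WT labels) of each gene from edgeR and bars its 95% interval, coloured by the test over all genes. Stat4, at -0.95, and Jak1, at -0.38, are the genes that fell, Tyk2, at 0.42, and Stat5a, at 0.34, those that rose, and the intervals of the other 5 genes include 0.

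The order of the genes per kb depends on the length used, which counts all annotated exon bases. For Stat5a it is 7133 bases, beside 3605 in its longest coding transcript, and for Stat5b 5539 beside 5062. By this length, Stat6 stood highest and Stat5a and Stat4 lowest in both groups. In the knockout-labelled libraries Stat6 was at 64.8 ± 1.00 CPM per kb (SD, n = 4), above Jak1 at 49.99 ± 3.32 CPM per kb with no overlap. In the wild-type-labelled libraries Stat6 and Jak1 overlapped, at 65.3 ± 6.89 and 65.3 ± 3.45 CPM per kb (n = 3). Jak3, Jak2, Stat5b, Stat3 and Tyk2 followed in the knockout-labelled libraries, at means of 37.2 to 31.96 CPM per kb, and each overlapped with the next. In the wild-type-labelled libraries Jak3, at 38.7 CPM per kb, stood apart from the next, Stat3, Stat5b and Jak2 overlapped between 33.0 and 31.0 CPM per kb, and Tyk2 stood apart below them at 23.8 CPM per kb. Stat5a lay at 11.1 ± 1.10 and Stat4 at 4.31 ± 0.40 CPM per kb in the knockout-labelled libraries, apart from each other. In the wild-type-labelled libraries Stat5a lay at 8.77 ± 0.23 and Stat4 at 8.31 ± 2.02 CPM per kb, and they overlapped. Among the 5 STATs, Stat4 made up 2.45% to 3.15% of the summed counts per kb in the knockout-labelled libraries, against 4.43% to 7.12% in the wild-type-labelled libraries.

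**Figure D3:**
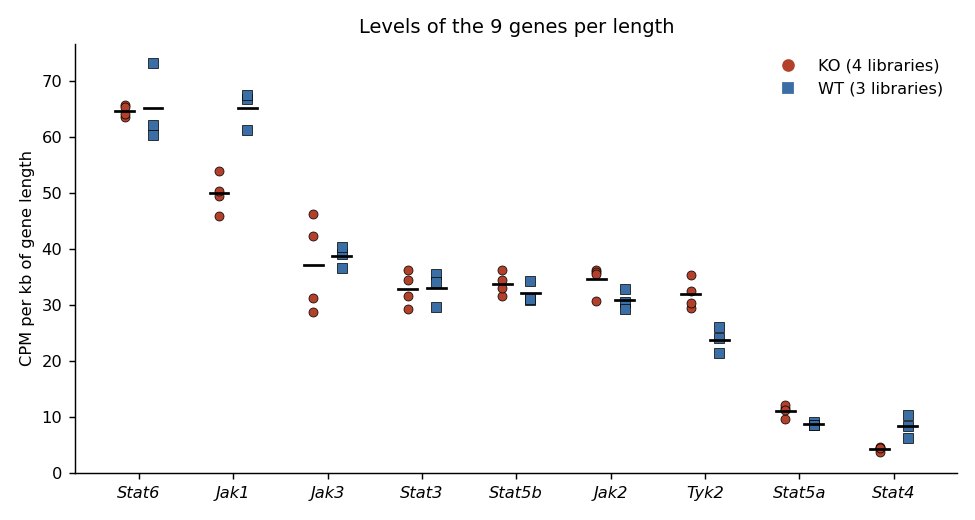
Levels in CPM per kb of gene length are plotted for the 9 genes, with a point for each library (circles, KO labels, left, and squares, WT labels, right) and a line at each mean. Stat6 is highest in the knockout-labelled libraries, at 63.7 to 65.8 CPM per kb, and Stat4 and Stat5a are lowest in every library, with Stat5a at no more than 12.2 CPM per kb.

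**Figure D4:**
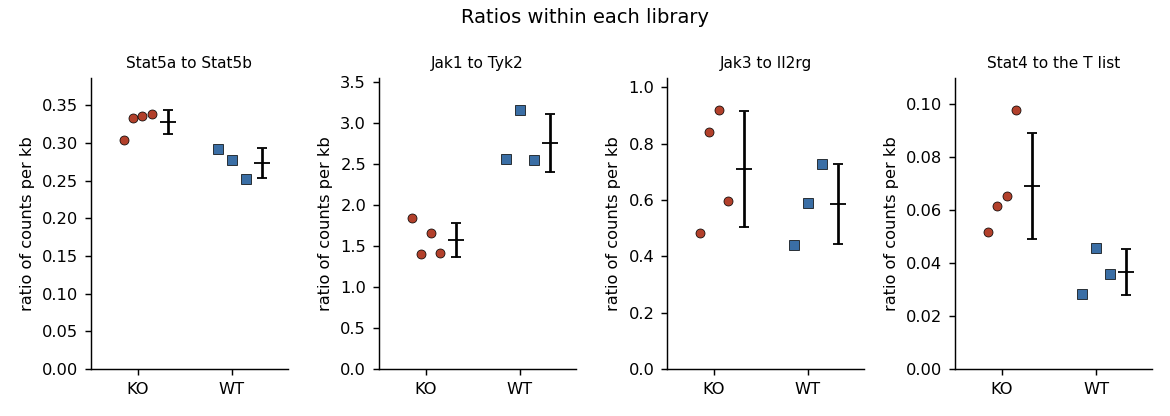
Each panel plots a ratio of counts per kb within each library, for 4 knockout-labelled (circles, left) and 3 wild-type-labelled (squares, right) libraries, with the mean ± SD beside the points and axes that start at 0. The groups are apart for Stat5a to Stat5b, Jak1 to Tyk2 and Stat4 to the 9 T cell markers, and they overlap for Jak3 to Il2rg.

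Across the 7 libraries, the genes whose log2 CPM followed each member most closely, of 9273 protein-coding genes compared, are given as a description. These correlations include the difference between the groups, and all share the same 7 libraries. Ccm2 and Kbtbd11 followed Jak1 (Pearson's r = 0.997 and 0.996), and Nrp1 and Tango2 followed Tyk2 (r = 0.995 and 0.993). Ube2d1 and Ssh2 followed Stat4 (r = 0.987 and 0.985), and Adgrg5 and Ints10 followed Stat5a (r = 0.988 and 0.985). For the genes that did not pass, the closest were Ostf1 for Jak2 (r = 0.992), B4galt3 for Jak3 (r = 0.963), Hyou1 for Stat3 (r = 0.947), Hmgxb3 for Stat5b (r = 0.995) and Plxnb2 for Stat6 (r = 0.96). Jak1 and Stat4 correlated at r = 0.915 and Tyk2 and Stat5a at r = 0.867, pairs that moved in the same direction between the groups, while Jak1 and Tyk2 correlated at r = -0.897.

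The rest of the pathway was read from lists of receptors, ligands, inhibitors and targets. Of 97 such genes, 82 were tested, 9 rose and 10 fell, which is 23.2% beside 15.5% of all genes tested, with a median log2 fold change of -0.04. Without knockout-labelled replicate 2 the number that passed was 12, and without wild-type-labelled replicate 2 it was 9. Stat2 and Irf9, which carry interferon signals, did not pass (edgeR adjusted p = 0.858 and 0.236). Stat2 averaged 185 ± 32.2 CPM in the knockout-labelled libraries (SD, n = 4) and 193 ± 49.5 CPM in the wild-type-labelled libraries (n = 3). Irf9 averaged 142 ± 22.4 CPM in the knockout-labelled libraries and 168 ± 10.5 CPM in the wild-type-labelled libraries.

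Of 8 genes of the common gamma chain family, whose receptors signal through JAK1 and JAK3, 4 fell, 1 rose and 3 did not pass, with a median log2 fold change of -0.54. Il7r, the interleukin 7 receptor chain of naive T cells, had 33.6, 24.8, 32.2 and 18.5 CPM in the knockout-labelled libraries, against 80.7, 70.7 and 69.3 CPM in the wild-type-labelled libraries (log2 fold change -1.43, edgeR adjusted p = 0.00265). Il2ra, the high-affinity chain for interleukin 2, had 5.08, 5.23, 4.62 and 3.58 CPM in the knockout-labelled libraries, against 15.1, 9.29 and 9.79 CPM in the wild-type-labelled libraries (log2 fold change -1.30, edgeR adjusted p = 0.00739). Both calls held without each library in turn. Il21r fell by 0.99 and Il2rb by 0.73 on the log2 scale, and Il15ra rose by 0.86. The adjusted p of Il21r was 0.0606 and 0.0688 without wild-type-labelled replicates 1 and 2. That of Il2rb was 0.0674 without knockout-labelled replicate 2 and 0.0682 without wild-type-labelled replicate 1 or 2. That of Il15ra was 0.0525 without knockout-labelled replicate 2, and 0.0787 and 0.0781 without wild-type-labelled replicates 2 and 3. Il2rg, Il4ra and Il9r did not pass. The T cell markers fell in the same libraries, and their part in these falls was not tested.

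Of 11 tested genes of the common beta chain and related receptors, 5 rose, 1, Il5ra, fell and 5 did not pass, with a median log2 fold change of 0.54. Most of these receptors, though not all, signal through JAK2. Epor, the erythropoietin receptor, had 19.3, 27.7, 36.3 and 36.7 CPM in the knockout-labelled libraries, against 2.93, 2.32 and 2.55 CPM in the wild-type-labelled libraries (log2 fold change 3.53, edgeR adjusted p = 0.000289). Each of 7 erythroid markers was also higher there and passed the test, the median being 3.27 on the log2 scale. Csf2rb, the common beta chain, had 403, 561, 443 and 578 CPM in the knockout-labelled libraries, against 253, 233 and 254 CPM in the wild-type-labelled libraries (log2 fold change 1.01, edgeR adjusted p = 0.00334). Its close paralog Csf2rb2 rose by 1.63, and reads that the 2 genes share could have been split between them. The calls of Epor, Csf2rb and Csf2rb2 held without each library in turn. Csf2ra rose by 0.54. The adjusted p of Csf2ra was 0.054 without knockout-labelled replicate 2, and 0.0623 and 0.084 without wild-type-labelled replicates 1 and 2. The count of receptors that rose was 3 without knockout-labelled replicate 2, wild-type-labelled replicate 1 or wild-type-labelled replicate 2. Il5ra, with a log2 fold change of -1.69, did not pass without knockout-labelled replicate 1 or 3 or any 1 of the wild-type-labelled libraries. Of 6 monocyte and macrophage markers, Ccr2 and Ly6c2 rose, and the sum of the 6 was 2361 to 3447 CPM in the knockout-labelled libraries, against 1371 to 1955 CPM in the wild-type-labelled libraries. The part of the erythroid and monocyte markers in these rises was not tested. Jak2 itself had a log2 fold change of 0.16.

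Among 9 tested receptors of the gp130, interleukin 12 and interleukin 10 groups, 1 fell, Il27ra, by 1.10 on the log2 scale (edgeR adjusted p = 0.0103). The median log2 fold change of the 9 was 0.33, and 4 had an unadjusted p under 0.05 in edgeR. Il12rb1 and Il12rb2, which pair JAK2 and TYK2 upstream of STAT4, had log2 fold changes of 0.42 and 0.63 that did not pass. None of 5 interferon receptor genes passed in edgeR, with 3 at an unadjusted p under 0.05, 2 that passed with DESeq2 and 2 with limma-voom. The smallest p was that of Ifnlr1 (log2 fold change -0.62, edgeR adjusted p = 0.0544). Of 23 ligand genes, 13 were tested, 1 fell and 1 rose. Il21, the Tfh cytokine that acts through STAT3, fell to 0.056 to 0.501 CPM in the knockout-labelled libraries, against 2.81 to 4.13 CPM in the wild-type-labelled libraries (edgeR adjusted p = 0.00212). The knockout-labelled values of Il21 rest on few reads, so the size of its fall is imprecise. Il7 rose by 1.79, with an adjusted p of 0.0621 and 0.0646 without wild-type-labelled replicates 2 and 3.

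Inhibitors of the pathway did not pass. None of 19 genes, among them Cish, the 7 SOCS genes, the 4 PIAS genes and the phosphatase genes Ptpn2 and Ptpn6, passed in edgeR, with 3 at an unadjusted p under 0.05, 1 that passed with DESeq2 and 3 with limma-voom. The smallest p was that of Ptprc, which encodes the phosphatase CD45, with a log2 fold change of -0.37 (edgeR adjusted p = 0.0734). Socs3, a direct target of STAT3, had 83.4 ± 21.6 CPM in the knockout-labelled libraries (SD, n = 4) and 86.2 ± 7.40 CPM in the wild-type-labelled libraries (n = 3).

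Lists of textbook targets were read beside the level of their STAT. Of 6 STAT4 targets, Furin, a protease gene, and Il18rap, an interleukin 18 receptor chain, rose, by 0.43 and 0.54 on the log2 scale, while Stat4 fell, and the other 4 did not pass. With DESeq2, 2 of the 6 were lower. The adjusted p of Furin was 0.0654, 0.079 and 0.0877 without knockout-labelled replicate 2 and wild-type-labelled replicates 2 and 3. That of Il18rap was 0.0719 and 0.0531 without knockout-labelled replicates 2 and 3, and 0.104 and 0.114 without wild-type-labelled replicates 1 and 2. Of 6 STAT5 targets, Il2ra fell and 5 did not pass in edgeR, with 4 of the 6 at an unadjusted p under 0.05 and 3 that passed with limma-voom. Of 5 tested STAT6 targets, Fcer2a, the low-affinity IgE receptor of B cells, fell by 1.42 (edgeR adjusted p = 0.0104) and Gata3, the type 2 helper factor, fell by 1.495. The adjusted p of Gata3 was 0.0639 and 0.0543 without wild-type-labelled replicates 1 and 2. Of 6 STAT3 targets, 2 fell. Il21, which is also among the ligands and the Tfh markers, fell by 3.52 on the log2 scale, with few reads in the knockout-labelled libraries. Maf, a factor that drives interleukin 21 production, fell by 0.54. The adjusted p of Maf was 0.0881 and 0.0569 without knockout-labelled replicates 2 and 3, and 0.1, 0.14 and 0.0757 without wild-type-labelled replicates 1, 2 and 3. The T cell markers were lower in the same libraries. For Fcer2a, the sum of the 7 B cell markers was also lower, though only Cd22 of them passed in edgeR. The part of the T and B cell markers in these values was not tested.

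**Figure D5:**
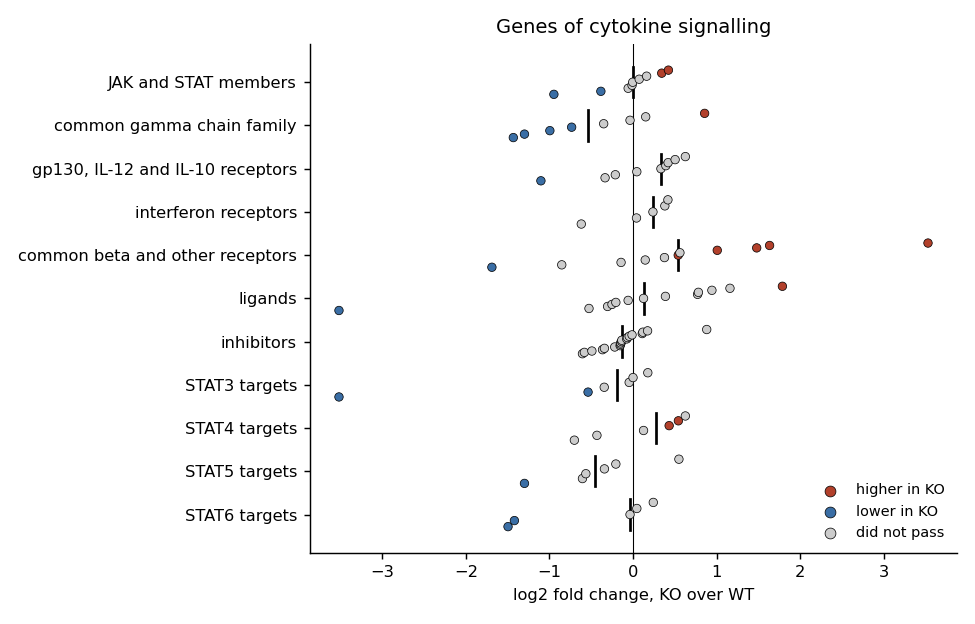
Points give the log2 fold change (KO over WT labels) of each tested gene in 11 groups of the pathway, coloured where the gene passed the test over all genes, with a black line at each group's median. The common gamma chain family has its median at -0.54 and the common beta chain and related receptors at 0.54, while the 9 JAK and STAT genes lie between -0.95 and 0.42.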

How the data were processed

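The authors deposited 1 table. Per the file headers it holds whole read counts and FPKM for every gene and library, together with the log2 fold change and p-values (raw and adjusted) of a comparison the authors ran. Counts were not normalized. In each library the deposited FPKM followed from count and gene length by a single factor, and served for that check alone. The 2 columns of means per side of the authors' comparison were not used, since their codes match no label. GRCm38 and mm10 are named in the submitters' processing notes, while aligner, counter and strandedness are not stated in the labels.

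Counts were tested with edgeR 4.0.16 in R 4.3.3 (TMM, filterByExpr with its minimum count of 10, robust quasi-likelihood F-test, genotype as the only term, all 7 libraries), after a check on simulated data. Single ratios were compared with a 2-sided exact permutation test, adjusted over 4 ratios, 1 of which (Jak1 to Tyk2) is only described. Counting that ratio lowers the adjusted p of Stat5a to Stat5b and of Stat4 to the T cell markers. Alternatives used DESeq2 1.42.0 and limma 3.58.1. Coordinates are those of the deposited table and were the same in GENCODE M21 for all 9 genes. Coding sequences were compared with Biopython 1.88. Named genes were the 9 members, Stat2 and Irf9, up to 5 genes with the smallest p among those that passed in each list (else the 1 with the smallest p), the 2 genes most alike to each member (averaging 10 CPM or more), and the 2 highest genes of each cell marker list. Some genes this rule names are not reported here. Other genes named were chosen after their values were seen. The members and lists were chosen with earlier results of these data known. No 2 libraries of a group agreed within sampling noise (chi-square per degree of freedom 21.7 to 67.1).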

Additional observations from a re-analysis of the deposited data

Results flagged for a closer look

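In 3 of 36 results examined, 1 knockout-labelled library stood far from the other 3, by a gap above the 95% critical value of Dixon's test for 4 samples, which chance gives in about 1 in 20 groups. Jak2 stood at 155 CPM in knockout-labelled replicate 3 and between 179 and 183 CPM in the others. Il15ra stood at 26.9 CPM in the same library and between 38.6 and 40.4 CPM in the others. The ratio of Stat5a to Stat5b was 0.304 in knockout-labelled replicate 1 and between 0.334 and 0.338 in the others.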

How the results depend on the processing

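Of the 9 genes, the 4 that passed in the reported fit kept their sign under all 16 alternatives, and Stat4 passed in each. The log2 fold changes of Jak3, Stat3 and Stat6, which did not pass, took both signs. The number of the 9 that passed, 4 in the reported fit, ran from 1 to 4 when each library was left out in turn (1 without knockout-labelled replicate 2 or wild-type-labelled replicate 2 or 3, and 2 without knockout-labelled replicate 4 or wild-type-labelled replicate 1). The number of genes that passed over the transcriptome, 2455 in the reported fit, was 3870 with limma-voom and ran from 1050 to 2553 with each library left out (1384 without knockout-labelled replicate 2, and 1326, 1050 and 1161 without wild-type-labelled replicates 1, 2 and 3). That of the pathway lists, 19, was 31 with limma-voom and ran from 9 to 21, with 12 without knockout-labelled replicate 2 and 9 without wild-type-labelled replicate 2. With the replicate number as a block, 1 of the 9 genes passed (Stat4), and 2119 over the transcriptome. The numbers share nothing known from the labels, and same-numbered libraries had correlations of their deviations from the group means of -0.05, 0.02 and 0.19. The difference in the log2 ratio of Stat4 to the T cell markers was 0.90, and 0.88 with their geometric mean (exact permutation p = 0.0571). With each library left out, it ran from 0.72 to 1.07. Ratios without a library were not tested, since neither 3 against 3 nor 4 against 2 libraries can reach 0.05. The cause of these differences was not tested. The values of the 9 genes rest on 259 to 8423 counts per library, fewest for Stat4.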
